A study of Mus musculus with 16 samples.

Results

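Adipocyte and lipogenesis genes were followed in healing skin wounds of mice with and without mechanical load. The set was a list of 37 genes for adipokines, lipid droplet proteins, lipolysis, fatty acid synthesis and triglyceride assembly, and a gene was kept if at least 1 probe set carried its symbol alone in the platform annotation. This held for 33 genes, with 68 probe sets, of 18193 genes and 34945 such probe sets in all. Acsl1, Cfd, Plin1 and Adrb3 had no such probe set here and are not analysed here. Where a gene had several probe sets (21 of the 33), the most variable of them by interquartile range stands for it.

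All tissue came from dorsal incisional wounds of wild-type C57BL/6 mice whose sex is given as female. The 4 groups are unstressed wounds at day 6, stressed wounds at day 6 after 48 hours of mechanical loading, unstressed wounds at day 14, and stressed wounds at day 14 after 10 days of loading. Loading of this kind is used in the mouse as a model of hypertrophic scarring. Each group holds 4 Affymetrix arrays and, per the design text, 4 mice. Day and length of loading change together between the stressed groups, so they cannot be told apart.

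White adipocytes lie under the dermis of mouse skin, where they store triglyceride in 1 large droplet and secrete adipokines. The droplet is filled from fatty acids taken up from blood or made from glucose, which are joined to a glycerol backbone, and it is emptied by lipases. PPARG and C/EBP alpha drive the adipocyte programme, while SREBP1 and ChREBP switch on the enzymes of fatty acid synthesis. The dermal fat layer thickens and thins with the hair cycle, and it is interrupted by a full incision and refilled as the wound heals. Sebaceous glands, the liver and muscle use many of the same enzymes.

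The deposited values are log signals centred per probe set, read here as log2, so 0 is no absolute level. Detection, background and the presence of a tissue's markers could not be judged from them, and levels cannot be compared between genes. Natural logs are possible, in which case each log2 difference would be larger than printed. Xist, a noncoding RNA made where an X chromosome is silenced, split the arrays into 2 classes: 12 arrays read -0.53 to 0.81, and replicates 3 and 4 of both day 14 groups read 5.98 to 6.30. The common sex label goes against this split, and day 14 results are therefore also given within each class. As these are bulk samples, fewer cells of a type and less RNA per cell cannot be told apart.

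The promoter windows of 4 of the genes described first are shown, because these 4 transcripts were called lower in loaded day 14 wounds. Each is 300 bases, 250 before to 50 after the annotated start, written 5′ to 3′ on the gene's strand, from RefSeq on GRCm38.p6. Capitals mark matches on either strand to the motifs searched. Adipoq lies on the plus strand at chr16:23146286-23146585, Thrsp on the minus strand at chr7:97417501-97417800, Cidec (the first of its 2 windows) on the minus strand at chr6:113435711-113436010, and Cd36 on the minus strand at chr5:17835847-17836146.
Adipoq: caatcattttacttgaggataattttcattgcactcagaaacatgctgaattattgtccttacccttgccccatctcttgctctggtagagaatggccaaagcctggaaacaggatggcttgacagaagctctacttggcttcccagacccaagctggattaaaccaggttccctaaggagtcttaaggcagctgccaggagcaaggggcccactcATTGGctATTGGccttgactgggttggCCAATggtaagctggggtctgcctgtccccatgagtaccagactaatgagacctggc
Thrsp: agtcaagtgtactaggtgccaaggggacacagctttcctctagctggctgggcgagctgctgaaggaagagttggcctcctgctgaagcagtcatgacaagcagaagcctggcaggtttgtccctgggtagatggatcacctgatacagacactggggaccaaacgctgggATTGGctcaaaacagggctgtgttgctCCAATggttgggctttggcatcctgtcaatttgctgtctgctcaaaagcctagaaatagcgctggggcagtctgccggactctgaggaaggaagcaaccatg
Cidec: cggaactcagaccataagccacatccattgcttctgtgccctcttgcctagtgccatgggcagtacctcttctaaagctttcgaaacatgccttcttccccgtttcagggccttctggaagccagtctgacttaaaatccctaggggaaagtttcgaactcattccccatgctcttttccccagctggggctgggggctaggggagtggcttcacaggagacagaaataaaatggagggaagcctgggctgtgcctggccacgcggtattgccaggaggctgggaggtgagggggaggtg
Cd36: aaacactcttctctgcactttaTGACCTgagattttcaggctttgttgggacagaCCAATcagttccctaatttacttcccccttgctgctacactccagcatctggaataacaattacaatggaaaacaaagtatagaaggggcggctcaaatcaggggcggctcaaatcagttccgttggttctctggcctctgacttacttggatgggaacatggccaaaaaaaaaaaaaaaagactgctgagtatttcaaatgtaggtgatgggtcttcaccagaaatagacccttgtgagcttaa
The Adipoq window holds CCAAT, or its reverse complement, with first bases 34, 27 and 7 bases before the start, and the Thrsp window holds it 79 and 52 bases before. The Cd36 window holds the nuclear receptor motif AGGTCA, reversed, 228 bases before the start and CCAAT 195 bases before. None of the motifs searched is spelled in the Cidec window shown.

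Windows were present for 24 of the 33 genes (34 windows), and the motif counts stand here beside those over all promoter windows. CCAAT was in 14 of the 34 windows (41.2%) and in 37.4% of all 32851 windows. AGGTCA was in 10 windows (29.4%), against 16.3% of all, and 3 of the 18 windows of genes called lower in loaded day 14 wounds held it. The C/EBP motif TTGCNNAA was in 4 windows (11.8%, against 10.8%), the E-box CACGTG in 2 (5.88%, against 7.15%), TATAAA in 3 (8.82%, against 13.6%), and the sterol regulatory motif TCACNCCAC in 1, that of Mlxipl (2.94%, against 1.24%). These are matches of letters and not sites of binding.

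In day 14 wounds, most of the adipocyte and lipogenesis genes were lower under load, and so were most of the skeletal muscle markers read further on. Of the 33 genes, 19 were lower in stressed than in unstressed wounds at an adjusted p of 0.05 in limma and 0 were higher, where 4.27% of all genes tested were called lower and 3.88% higher. The median log2 difference over the 33 genes was -1.22, against 0.01 over all genes, and 31 of the 33 differences were negative. For 12 of the 33 every stressed array lay below every unstressed array, which held for 4.52% of all genes. All 3 adipokines, 2 of 3 droplet genes, 5 of 6 genes for triglyceride assembly and both genes for glucose uptake and carbonic anhydrase were called, but 1 of 4 transcription factors and 3 of 8 genes for fatty acid synthesis. In the main fit each SE and p rests on a spread shared by all 4 groups, the day 6 arrays included. The mean of the 33 genes per array had SDs of 0.41 in unstressed and 0.10 in stressed day 6 wounds. At day 14 these SDs were 0.43 and 0.59. With the 8 day 14 arrays fitted alone, Slc2a4 was the 1 gene called (0.0934% of all genes were called lower). With the same 8 arrays and the Xist class as a block, a fit added after the data were seen, 10 were called (1.42% of all genes). Quantile normalization gave 6 (0.72% of all genes) and the high Xist arrays of day 14 alone gave 3 (1.12%).

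**Figure D1:**
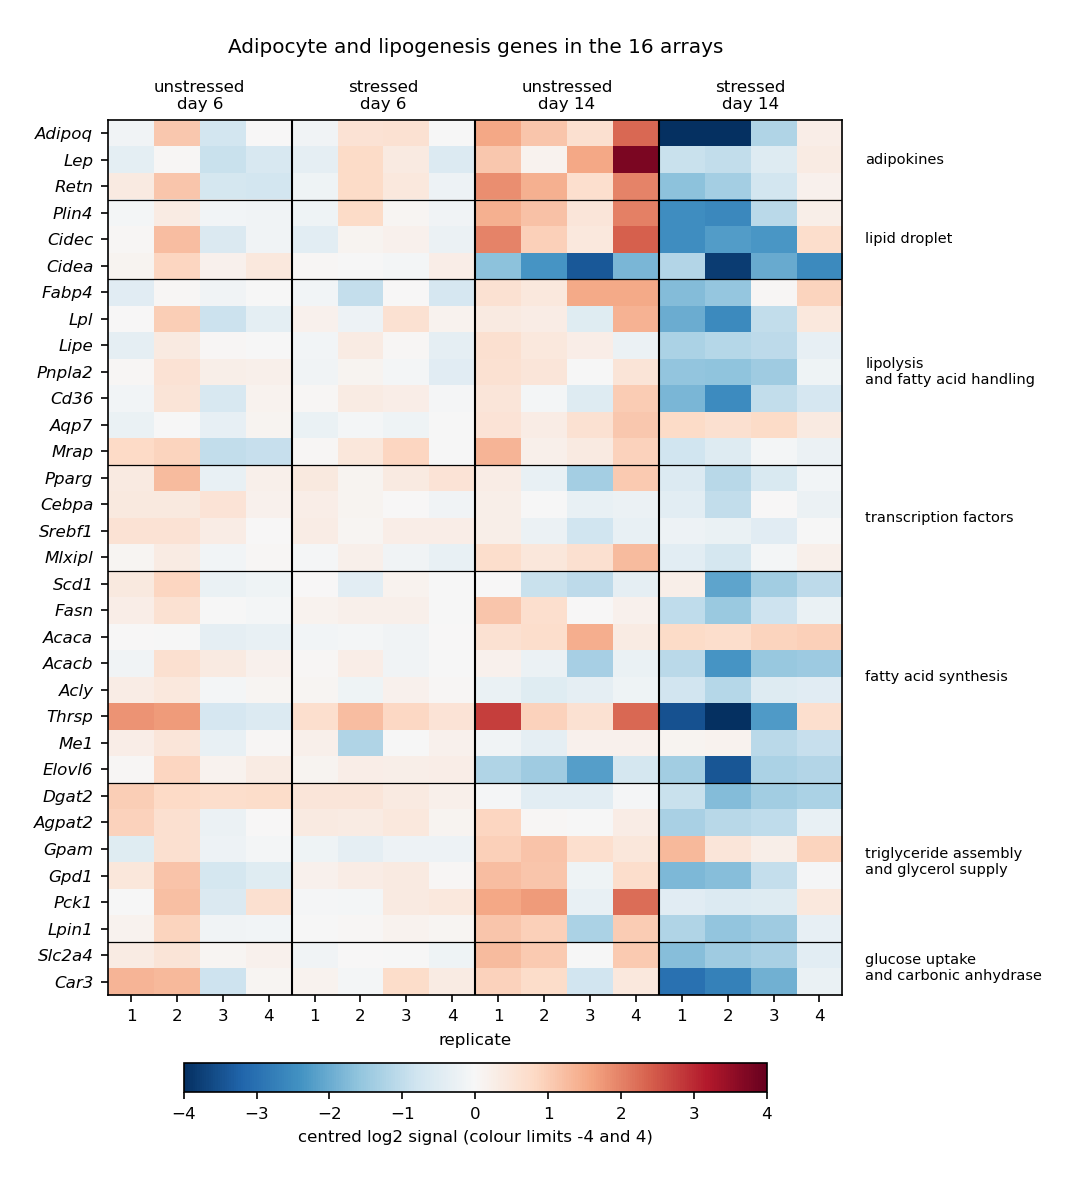
Centred log2 signal (colour, limits -4 and 4) of the 33 genes in rows, ordered by role, and the 16 arrays in columns, ordered by group and replicate. The stressed day 14 columns are blue in most rows, least so in replicate 4, while Aqp7, Acaca and Gpam are red in both day 14 groups and Cidea and Elovl6 blue in both.

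Among the adipokines, Adipoq encodes adiponectin, a hormone that raises insulin sensitivity. In unstressed day 14 wounds Adipoq read 1.56, 1.10, 0.65 and 2.28 in replicates 1 to 4, and in stressed wounds -5.39, -4.44, -1.22 and 0.25. The groups did not overlap, and stressed replicates 1 and 2 lay far below replicates 3 and 4. The difference was -4.09 (SE 0.90, adjusted p = 0.0137 in limma), from 1.40 ± 0.70 to -2.70 ± 2.65 (SD, n = 4). This SE also draws on the day 6 arrays, whose Adipoq SDs were 0.76 in unstressed and 0.39 in stressed wounds. Without stressed replicate 2 the Adipoq difference was -3.51 with an adjusted p of 0.0521 in limma.

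Lep encodes leptin, the satiety hormone of fat tissue. Its values were 1.08, 0.14, 1.54 and 3.77 in unstressed and -0.88, -1.0, -0.53 and 0.34 in stressed day 14 wounds. Stressed replicate 4 lay above unstressed replicate 2, so the groups overlapped. Lep fell by 2.15 in log2 units (SE 0.57, adjusted p = 0.0317 in limma), and this call was lost in 4 of the 8 fits that leave out 1 day 14 array. The adjusted p reached 0.1 without stressed replicate 2 and was 0.0823, 0.0553 and 0.0535 without stressed replicate 1, stressed replicate 3 or unstressed replicate 3. Retn encodes resistin, which is secreted by mouse fat cells. It read 1.85, 1.43, 0.66 and 1.99 in unstressed and -1.63, -1.36, -0.74 and 0.17 in stressed wounds, with no overlap. Retn fell by 2.37 (SE 0.45, adjusted p = 0.00637 in limma), and the call held in all 8 of those fits.

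Of the lipid droplet genes, Cidec encodes the protein that lets droplets fuse into 1. Its values were 1.99, 0.96, 0.41 and 2.38 in unstressed and -2.48, -2.24, -2.33 and 0.70 in stressed day 14 wounds. In 3 stressed arrays Cidec was below all unstressed arrays, and replicate 4 lay within their range. It fell by 3.02 in log2 units (SE 0.62, adjusted p = 0.00913 in limma). Plin4 encodes a perilipin, a coat protein of nascent droplets, and read 1.41, 1.18, 0.49 and 2.02 in unstressed against -2.50, -2.58, -1.08 and 0.22 in stressed wounds. Its groups did not overlap, and the difference was -2.76 (SE 0.49, adjusted p = 0.00463 in limma).

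Cidea, a droplet protein best known from brown fat and also found in sebaceous glands, did not follow the other droplet genes. It read -1.63, -2.35, -3.39 and -1.81 in unstressed and -1.17, -3.80, -2.01 and -2.54 in stressed day 14 wounds. The ranges lay on top of each other, with a difference of -0.08 (SE 0.45, adjusted p = 0.937 in limma). Cidea moved with time instead, as described further on.

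**Figure D2:**
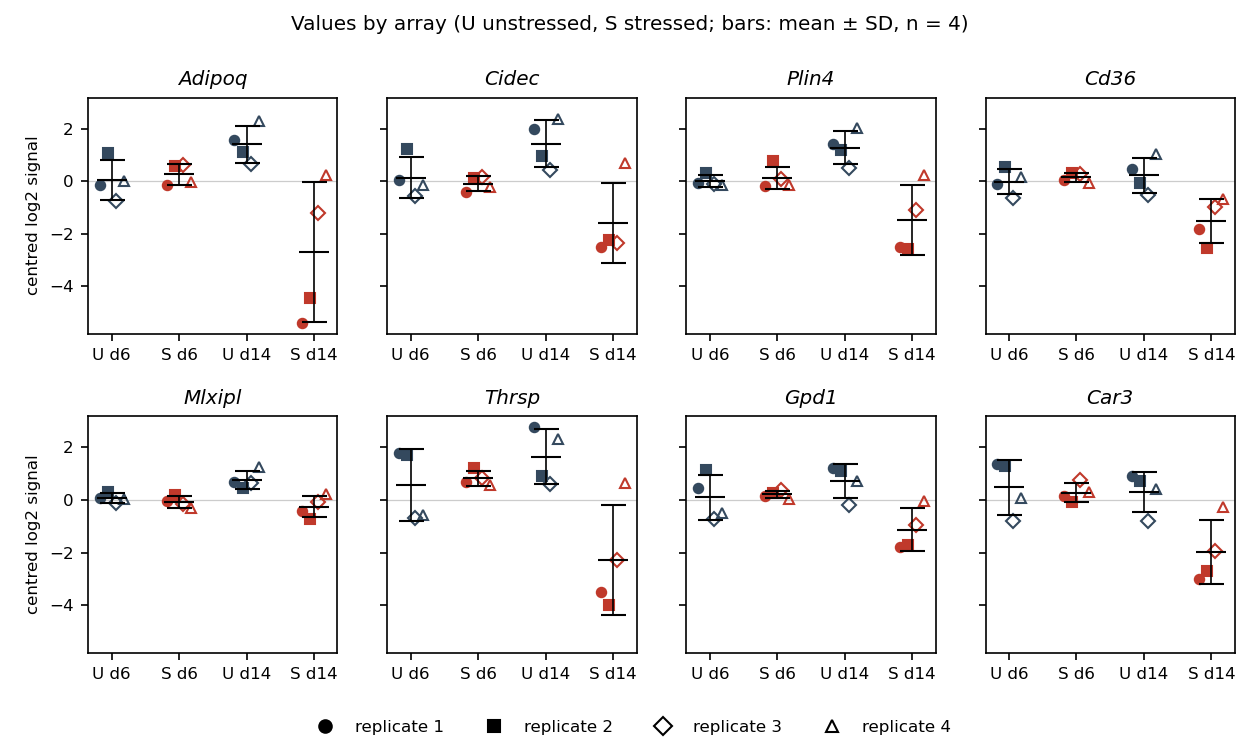
Centred log2 signal of 8 genes by array (y axis) in unstressed (U, dark) and stressed (S, red) wounds at day 6 and day 14, with mean ± SD (n = 4) and filled symbols for replicates 1 and 2. In stressed day 14 wounds replicates 1 and 2 lie lowest and replicate 4 highest in most panels; its Adipoq value is 0.25, against -5.39 in replicate 1.

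Among genes of lipolysis and fatty acid handling, 3 of 7 were called lower. Cd36 encodes a scavenger receptor that takes up fatty acids, also in muscle and macrophages. It read 0.48, -0.08, -0.52 and 1.02 in unstressed and -1.82, -2.52, -0.98 and -0.68 in stressed day 14 wounds. No stressed array reached the lowest unstressed one, and Cd36 fell by 1.73 in log2 units (SE 0.38, adjusted p = 0.0137 in limma). Pnpla2 (adipose triglyceride lipase, which takes the first fatty acid from a triglyceride) fell by 1.59, from 0.39 ± 0.28 to -1.21 ± 0.68. Lipe (hormone-sensitive lipase, which acts next) fell by 1.22, from 0.27 ± 0.37 to -0.95 ± 0.43 (SD, n = 4). Neither lipase had overlapping groups, with adjusted p = 0.00301 and 0.00637 in limma.

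The other 4 genes of this role did not pass. Fabp4, the fatty acid carrier of fat cells and macrophages, differed by -1.60 (SE 0.48) with an adjusted p that rounds to 0.05 and lies above the threshold in limma. Its arrays read 0.59, 0.41, 1.51 and 1.53 in unstressed and -1.75, -1.55, 0.05 and 0.88 in stressed wounds, so it was the stressed replicates 1 and 2 that lay low. When all probe sets were fitted one by one, the other 3 Fabp4 probe sets passed, at -1.68, -1.69 and -1.24. Lpl, lipoprotein lipase, which frees fatty acids from blood lipoproteins, differed by -1.67 (SE 0.55, adjusted p = 0.0739 in limma), and its second probe set passed at -1.69. Mrap, an accessory protein of melanocortin receptors, differed by -1.12 (adjusted p = 0.103 in limma) although its groups did not overlap. Aqp7, the glycerol channel of fat cells, was level between unstressed and stressed wounds at 0.64 ± 0.34 and 0.63 ± 0.18 (SD, n = 4), a difference of -0.01 (adjusted p = 0.989 in limma).

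Of the transcription factors, Mlxipl was called. It encodes ChREBP, which senses glucose metabolites and turns on genes of fat synthesis. Mlxipl read 0.70, 0.45, 0.64 and 1.25 in unstressed and -0.42, -0.71, -0.09 and 0.21 in stressed day 14 wounds. The groups did not overlap, and the difference was -1.01 (SE 0.20, adjusted p = 0.0085 in limma). Pparg, the master regulator of fat cell formation, differed by -0.53 (SE 0.41, adjusted p = 0.477), Cebpa by -0.33 (SE 0.19, adjusted p = 0.313) and Srebf1 by 0.04 (SE 0.19, adjusted p = 0.923), all in limma. The unstressed Pparg values ran from -1.36 to 1.05 and held the whole stressed range of -1.12 to -0.12.

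In fatty acid synthesis, Thrsp by its chosen probe set had a difference second in size only to that of Adipoq among the 33 genes. It encodes Spot 14, a nuclear protein that rises with lipogenesis. Its arrays read 2.78, 0.92, 0.60 and 2.31 in unstressed and -3.5, -3.99, -2.27 and 0.67 in stressed day 14 wounds. Stressed replicate 4 lay just above unstressed replicate 3, and the other stressed arrays were far below. Thrsp fell by 3.92 in log2 units (SE 0.86, adjusted p = 0.013 in limma), from 1.65 ± 1.06 to -2.27 ± 2.09 (SD, n = 4). Its other probe sets averaged 1.42 and 0.49 in unstressed and -0.42 and 0.42 in stressed day 14 wounds, so the size of the fall depends on the probe set.

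Fasn, the fatty acid synthase, fell by 1.39 (SE 0.26, adjusted p = 0.00562 in limma), from values of 0.01 to 1.12 to values of -1.48 to -0.27. Acacb, the acetyl-CoA carboxylase whose product holds back fatty acid oxidation, fell by 1.19 (SE 0.30, adjusted p = 0.0241 in limma). Unstressed replicate 3 gave Acacb -1.34, within the stressed range of -2.37 to -1.08, and leaving out unstressed replicate 1 or 2 or stressed replicate 2 ended the call (adjusted p = 0.0709, 0.0595 and 0.086 in limma). Acly, which makes cytosolic acetyl-CoA from citrate, differed by -0.39 (adjusted p = 0.134 in limma). In the fit of all probe sets another of its 6 probe sets passed, at -0.92 (SE 0.20, adjusted p = 0.0127 in limma), and the rest did not. Scd1, a desaturase, differed by -0.50, Elovl6, an elongase, by -0.43, and Me1, a malic enzyme that supplies NADPH, by -0.40, with adjusted p = 0.482, 0.577 and 0.502 in limma.

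Acaca, the acetyl-CoA carboxylase of fat synthesis itself, was 0.78 ± 0.48 in unstressed and 0.83 ± 0.12 in stressed day 14 wounds (SD, n = 4; adjusted p = 0.903 in limma). Its other probe set gave another answer in the fit of all probe sets, -1.02 (SE 0.18, adjusted p = 0.00472 in limma). Gpam, which starts triglyceride assembly, showed the same split: -0.07 (SE 0.25, adjusted p = 0.899) for its chosen probe set and -1.07 (SE 0.22, adjusted p = 0.0097) for the second, both in limma. The values of Acaca and Gpam therefore depend on the probe set, and so do those of some genes called lower. In the same fit the second probe set of Acacb differed by 0.22 (adjusted p = 0.592 in limma). The second probe sets of Pnpla2 and Lipe averaged 0.20 and 0.13 in unstressed and 0.27 and 0.30 in stressed day 14 wounds. Over the 21 genes with several probe sets, all probe sets lay on the same side of 0 in 14 and on both sides in 7, and 34 of the 68 probe sets, of 24 genes, were called lower and 0 higher, where 4.04% of all 34945 probe sets were called lower and 3.31% higher.

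Triglyceride assembly and glycerol supply had 5 of 6 genes called lower. Gpd1 makes glycerol 3-phosphate from a glycolytic intermediate. It read 1.23, 1.12, -0.18 and 0.71 in unstressed and -1.80, -1.71, -0.95 and -0.05 in stressed day 14 wounds, with stressed replicate 4 above unstressed replicate 3. Gpd1 fell by 1.85 (SE 0.43, adjusted p = 0.0175 in limma). Without stressed replicate 1 or 2 its adjusted p was 0.0579 or 0.0667 in limma. The other Gpd1 probe sets averaged 0.56, 0.67 and 0.05 in unstressed and -0.19, -0.16 and 0.08 in stressed day 14 wounds. With the median of its probe sets Gpd1 was not called. Dgat2, which adds the last fatty acid to a triglyceride, read -0.05, -0.42, -0.43 and -0.03 in unstressed and -0.88, -1.73, -1.40 and -1.26 in stressed wounds. All 4 stressed Dgat2 values were lower than all unstressed ones, and the difference was -1.08 (SE 0.16, adjusted p = 0.00185 in limma). Its second probe set did not pass in the fit of all probe sets, at -0.22 (SE 0.18, adjusted p = 0.512 in limma), so this call depends on the probe set. Agpat2, an acyltransferase earlier in the chain, fell by 1.22 (SE 0.26, adjusted p = 0.0122 in limma), also with no overlap.

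Lpin1, the phosphatidate phosphatase lipin 1, fell by 1.58 (SE 0.44, adjusted p = 0.0373 in limma). Unstressed Lpin1 was 1.12, 0.95 and 1.01 in 3 arrays and -1.27 in replicate 3, which lay among the stressed values of -1.19, -1.58, -1.41 and -0.33. Pck1, phosphoenolpyruvate carboxykinase, the start of glyceroneogenesis, fell by 1.56 (SE 0.46, adjusted p = 0.0486 in limma). Its unstressed values were 1.54, 1.69, -0.30 and 2.23 and its stressed ones -0.46, -0.54, -0.52 and 0.43. Of the 8 fits without 1 array, Lpin1 and Pck1 each kept the call in 2, those without unstressed replicate 3 and without stressed replicate 4, and their adjusted p otherwise ran from 0.0754 to 0.119 and from 0.093 to 0.134 in limma.

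Slc2a4 encodes GLUT4, the insulin-responsive glucose transporter of fat and muscle. It read 1.27, 1.06, -0.01 and 1.04 in unstressed and -1.70, -1.43, -1.30 and -0.42 in stressed day 14 wounds, with no overlap. Slc2a4 had the smallest p-value of the 33 genes, with a difference of -2.05 (SE 0.27, adjusted p = 0.000684 in limma). It kept its call in all 12 alternative fits and in all 8 fits without 1 array. Car3 encodes carbonic anhydrase 3, abundant in fat and in slow muscle. It read 0.91, 0.72, -0.78 and 0.42 in unstressed and -2.99, -2.69, -1.92 and -0.27 in stressed wounds. Stressed replicate 4 lay above unstressed replicate 3, and Car3 fell by 2.29 (SE 0.57, adjusted p = 0.0241 in limma). Leaving out replicate 1 or 2 of either group ended that call, with adjusted p from 0.0597 to 0.0867 in limma.

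The 4 day 14 replicates did not contribute alike. Over the 19 genes called, stressed replicate 4 held the highest stressed value in 17, and unstressed replicate 3 the lowest unstressed value in 16. Within the low Xist class (replicates 1 and 2), 30 of the 33 genes were lower in stressed wounds, with a median difference of -1.70, and within the high class (replicates 3 and 4) 27 were, with a median of -0.80. Both classes were lower for 25 genes. Of all 18193 genes, 8207 were lower in the low class, 9773 in the high class and 5355 in both, with medians of 0.05 and -0.03 in the low and high class. Adipoq differed by -6.24 in the low and -1.95 in the high class, Thrsp by -5.59 and -2.25, and Slc2a4 by -2.72 and -1.37. Lep ran the other way, -1.55 and -2.75, and Dgat2 was alike at -1.07 and -1.10. Between arrays of the same replicate number, 27, 31, 27 and 29 of the 33 genes were lower for numbers 1 to 4. With stressed replicate 2 left out the count of genes called dropped from 19 to 12, with 1.59% of all genes called lower, and without stressed replicate 4 it was 21, with 8.85%.

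At day 6 most differences under load were smaller in size. Of the 33 genes 0 passed in limma, with 1, Dgat2, at an unadjusted p under 0.05, and 0.055% of all genes were called in either direction. The median log2 difference was -0.14, and 23 of the 33 differences were negative, against 8871 of all 18193 genes. For 2 genes, Dgat2 and Slc2a4, every stressed array lay below every unstressed array. The share of all genes for which this held at day 6 was not counted. Dgat2 read 1.0, 0.79, 0.70 and 0.73 in unstressed and 0.49, 0.48, 0.37 and 0.20 in stressed wounds, a difference of -0.42 (SE 0.16, adjusted p = 0.653 in limma). Adipoq at day 6 was 0.06 ± 0.76 in unstressed and 0.26 ± 0.39 in stressed wounds, and Thrsp 0.56 ± 1.36 and 0.83 ± 0.29 (SD, n = 4). Among unstressed day 6 arrays Thrsp was 1.79 and 1.70 in replicates 1 and 2 and -0.68 and -0.56 in replicates 3 and 4, and Mrap, Gpd1 and Car3 also had their higher values in the first 2 replicates.

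Whether loading acted differently at the 2 days was tested by the difference between the loading effects. It was negative for 29 of the 33 genes, with a median of -1.20, against 0.00 over all genes, and 21 had an unadjusted p under 0.05. After adjustment 0 passed in limma, where 0.0385% of all genes were called in either direction. The smallest adjusted p belonged to Slc2a4, at -1.69 (SE 0.38, adjusted p = 0.157 in limma), followed by Plin4, at -2.89 (adjusted p = 0.189) and Retn, at -2.57 (adjusted p = 0.207). Weighting the arrays by their estimated quality gave 14 calls, with 3.13% of all genes called. Leaving out stressed day 14 replicate 4 gave 9, with 1.05% of all genes, and leaving out unstressed day 14 replicate 3 gave 2, with 0.335%.

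**Figure D3:**
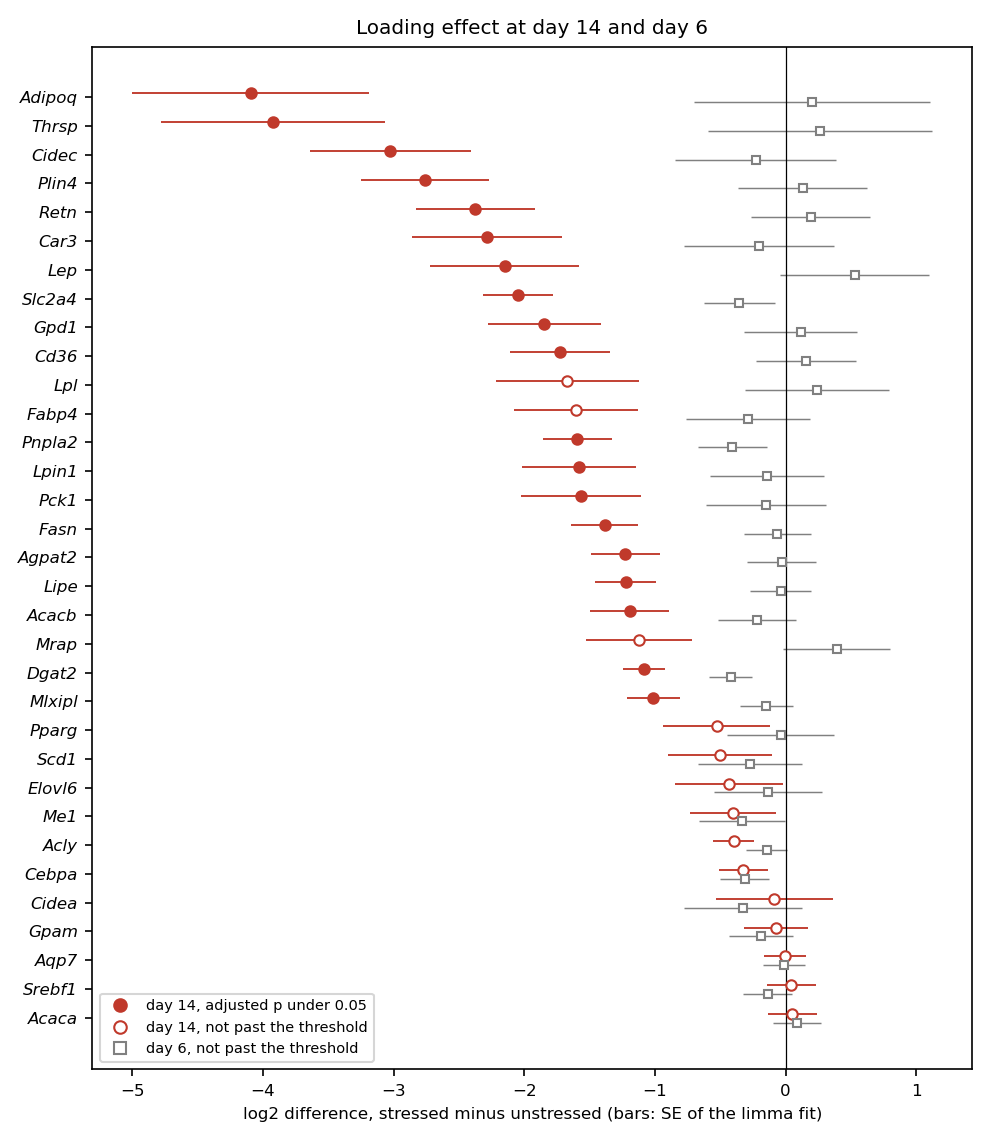
Log2 difference, stressed minus unstressed (x axis, bars: SE of the limma fit), for the 33 genes at day 14 (circles, filled past the adjusted threshold) and day 6 (squares), ordered by the day 14 value. Day 14 values run from -4.09 (Adipoq) to 0.05 (Acaca), while day 6 values lie between -0.42 and 0.53.

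From day 6 to day 14 the unstressed wounds showed both directions. Of the 33 genes 7 rose (Lep, Retn, Plin4, Aqp7, Mlxipl, Acaca and Gpam) and 5 fell (Cidea, Srebf1, Acly, Elovl6 and Dgat2), where 23.1% of all genes rose and 31.8% fell. The median difference was 0.29, against -0.09 over all genes. This comparison and the day 14 loading comparison share the unstressed day 14 arrays, and the one in stressed wounds shares the stressed day 14 arrays, so high or low values there enter both. All day 6 arrays are of the low Xist class, and the day 14 arrays are of both.

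Lep read -0.38, 0.04, -0.90 and -0.65 at day 6 in unstressed wounds, below all 4 day 14 values given above, and rose by 2.10 (SE 0.57, adjusted p = 0.00646 in limma). Retn read 0.35, 1.12, -0.69 and -0.75 at day 6, overlapping with its day 14 values by replicate 3 of the latter, and rose by 1.48 (SE 0.45, adjusted p = 0.0128 in limma). Plin4 rose by 1.28 (adjusted p = 0.0387 in limma) and Mlxipl by 0.68 (adjusted p = 0.0111 in limma), the Plin4 call being lost in 6 of the 8 fits that leave out 1 array (adjusted p 0.0609 to 0.111). Adipoq and Cidec moved by 1.34 and 1.29 without passing (adjusted p = 0.219 and 0.0873 in limma).

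The genes that fell in unstressed wounds came from droplets, fatty acid synthesis, its regulators and triglyceride assembly. Cidea read 0.10, 0.85, 0.16 and 0.41 at day 6 and fell by 2.68 (SE 0.45, adjusted p = 0.000236 in limma), with no overlap. Elovl6 read 0.06, 0.87, 0.15 and 0.32 at day 6 and -1.19, -1.42, -2.20 and -0.70 at day 14, and fell by 1.73 (SE 0.41, adjusted p = 0.00295 in limma). Every day 14 value of Elovl6 was under every day 6 value. Dgat2 fell by 1.04 (SE 0.16, adjusted p = 0.000147 in limma), its arrays at both days being given above. Srebf1, which encodes SREBP1, fell by 0.64 (SE 0.19, adjusted p = 0.00997 in limma), from 0.58, 0.57, 0.29 and 0.02 to 0.25, -0.25, -0.79 and -0.31, with overlap. Acly fell by 0.51 (SE 0.16, adjusted p = 0.0137 in limma), from 0.31, 0.42, -0.08 and 0.07 to -0.26, -0.50, -0.37 and -0.18, without overlap.

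In stressed wounds 22 of the 33 genes fell from day 6 to day 14 and 3 rose, where 34.3% of all genes fell and 24.0% rose. The median difference was -1.06, against -0.14 over all genes. Thrsp, at 0.67, 1.23, 0.84 and 0.56 at day 6, fell by 3.10 (SE 0.86, adjusted p = 0.00668 in limma). Adipoq, at -0.13, 0.57, 0.62 and -0.02 at day 6, fell by 2.96 (SE 0.90, adjusted p = 0.0117 in limma). In both genes stressed day 14 replicate 4 lay within the day 6 range. Car3, at 0.14, -0.09, 0.75 and 0.32 at day 6, fell by 2.25 (SE 0.57, adjusted p = 0.00402 in limma) with no overlap, and Cidea, at 0.05, -0.02, -0.07 and 0.26 at day 6, fell by 2.44 (SE 0.45, adjusted p = 0.00044 in limma), also with none. The smallest p-value was that of Dgat2, which fell by 1.70 (SE 0.16, adjusted p = 4.81e-06 in limma). Lep, Retn, Mlxipl, Pck1, Fabp4, Mrap, Pparg and Me1 did not pass, with Lep at -0.57 and Mlxipl at -0.18. With the high Xist arrays as the only day 14 arrays 13 genes passed in place of 25, with 48.5% of all genes called in either direction. Of the 8 fits that leave out 1 stressed array, Cidec kept its call in 1, Srebf1, Scd1 and Lpin1 in 2 each, Lpl and Cebpa in 3 each and Gpd1 in 7. In the other fits their adjusted p in limma ran from 0.0646 to 0.135 for Cidec, 0.0696 to 0.122 for Srebf1, 0.062 to 0.142 for Scd1, 0.0511 to 0.078 for Lpin1, 0.0596 to 0.117 for Lpl and 0.0687 to 0.155 for Cebpa, and it was 0.0511 for Gpd1 without stressed day 14 replicate 1.

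Aqp7, Acaca and Gpam rose in both kinds of wound and were the 3 genes that rose in stressed wounds. Aqp7 read -0.27, -0.02, -0.32 and 0.10 at day 6 in unstressed and -0.27, -0.07, -0.18 and -0.03 in stressed wounds, and rose by 0.76 and 0.77 (SE 0.16 in both, adjusted p = 0.00121 and 0.00105 in limma). Its day 14 values were 0.55, 0.28, 0.62 and 1.09 in unstressed and 0.75, 0.66, 0.75 and 0.37 in stressed wounds, all above those at day 6. Acaca rose by 0.95 and 0.91 (SE 0.19 in both, adjusted p = 0.000801 and 0.000958 in limma) and Gpam by 0.84 and 0.96 (SE 0.25 in both, adjusted p = 0.01 and 0.00427 in limma). In stressed wounds Acaca went from -0.11, -0.08, -0.15 and 0.03 to 0.78, 0.70, 0.89 and 0.96, and Gpam from -0.16, -0.35, -0.21 and -0.19 to 1.30, 0.49, 0.23 and 0.90, with no overlap in either. The second probe sets did not follow: in the fit of all probe sets that of Acaca fell by 1.0 and that of Gpam by 0.86 in stressed wounds (adjusted p = 0.000509 and 0.00515 in limma). With the median over a gene's probe sets the Acaca difference in stressed wounds was -0.04, and the second Aqp7 probe set differed by -0.07 (adjusted p = 0.693 in limma). Acacb and Thrsp also had probe sets called in both directions in stressed wounds.

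Read side by side, 13 genes fell with time in stressed wounds and were lower under load at day 14 without passing in unstressed wounds (Adipoq, Cidec, Lipe, Pnpla2, Cd36, Fasn, Acacb, Thrsp, Agpat2, Gpd1, Lpin1, Slc2a4 and Car3). The calls of Cidec and Lpin1 with time were lost in most fits without 1 array. With only the high Xist arrays of day 14, the time calls of Adipoq, Cidec, Lipe, Pnpla2, Cd36, Thrsp, Gpd1, Lpin1 and Car3 were lost. With the day 14 arrays fitted alone, Slc2a4 was the 1 gene of the 13 that kept the load call. The time call and the load call use the same stressed day 14 arrays, and the share of all genes with this pattern was not counted. Lep, Retn and Mlxipl rose with time in unstressed wounds, did not pass in stressed wounds and were lower under load. Plin4 rose in unstressed and fell in stressed wounds. Cidea, Srebf1, Acly and Elovl6 fell with time in both and, by their chosen probe sets, were not called for load at day 14. The Srebf1 call in stressed wounds was lost in most fits without 1 array, and another Acly probe set was called lower under load. Dgat2 fell in both kinds of wound and was lower under load by its chosen probe set. The test of whether the time effects differ between stressed and unstressed wounds is the same as that of the loading effects between days, in which 0 of the 33 passed.

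**Figure D4:**
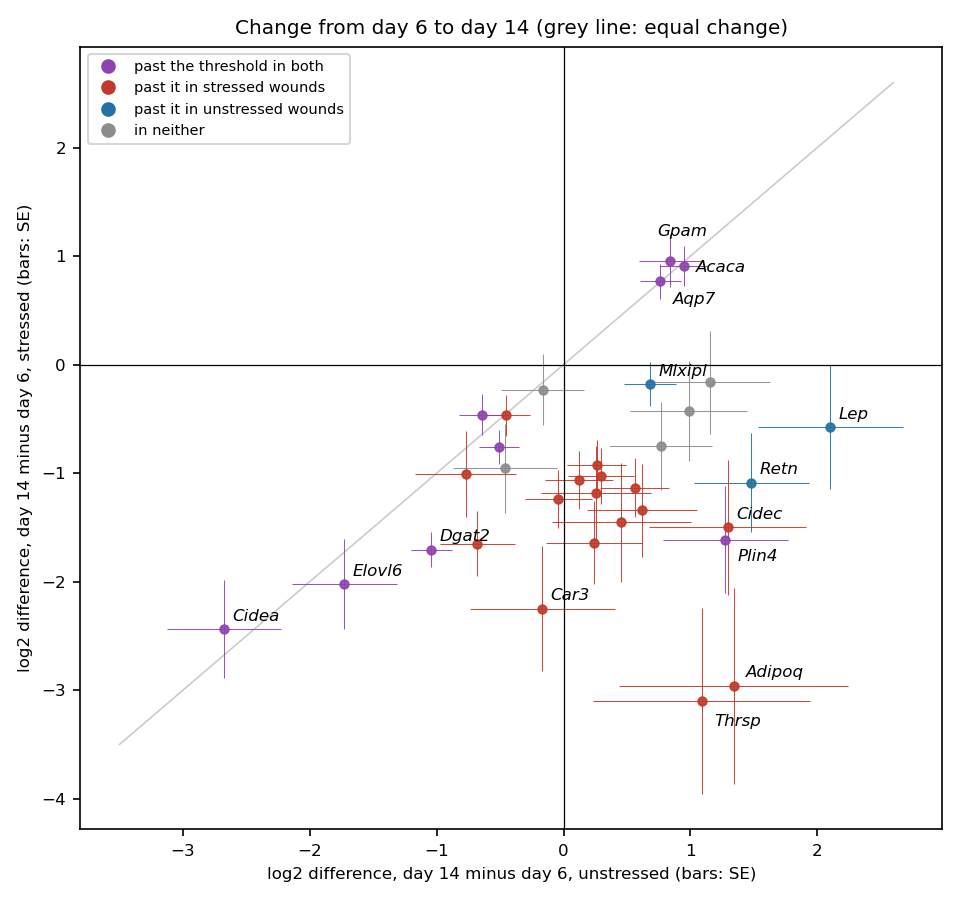
Log2 difference of day 14 minus day 6 in unstressed (x axis) and stressed wounds (y axis) for the 33 genes, with SE bars, coloured by the comparisons in which a gene passed the adjusted threshold. Most points lie below the grey line of equal change; Aqp7, Acaca, Gpam, Cidea and Elovl6 lie near it, and Adipoq (1.34, -2.96) and Thrsp (1.09, -3.10) farthest below.

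Of the 10 measured adipocyte markers, all among the 33 genes, 6 were lower under load at day 14 and 0 higher, with a median of -1.88. Other genes of fat cells were read from lists that held none of the 33. Beside these counts, 4.27% of all genes were called lower under load at day 14 and 3.88% higher. At day 14, 6 of 14 measured other adipocyte genes were lower under load and 1 was higher, with a median of -1.16. Lower were Npr3, the natriuretic peptide clearance receptor (-1.76), Adig, adipogenin (-1.65), G0s2, an inhibitor of adipose triglyceride lipase (-1.58), Pcx, pyruvate carboxylase (-1.48), Lgals12, a galectin of fat cells (-1.23), and Rbp4, retinol-binding protein 4 (-1.23). Fabp5, the fatty acid carrier of epidermis and macrophages, rose by 0.86 (SE 0.20, adjusted p = 0.0169 in limma). Of 15 other lipolysis and droplet genes 0 were called, with a median of 0.17, Plin5 coming nearest (-0.60, adjusted p = 0.0552 in limma).

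Acss2, a cytosolic acetyl-CoA synthetase, was the 1 gene called of 13 others of fatty acid synthesis (-1.35, SE 0.31, adjusted p = 0.0151 in limma). Of 17 adipogenic regulators, Klf15, a transcription factor of fat and muscle (-1.32), and Ppargc1a, the coactivator PGC-1 alpha (-1.04), were lower and none higher. Of 15 fatty acid oxidation genes 4 were lower: Pdk4, a kinase that shuts pyruvate dehydrogenase (-3.16), the thiolase Acaa2 (-0.94) and the acyl-CoA dehydrogenases Acadm (-0.65) and Acadvl (-0.59). Among 7 receptors for adipokines and insulin, the adiponectin receptor Adipor1 was lower (-0.89, adjusted p = 0.0054 in limma), and the leptin receptor Lepr differed by -1.26 without passing (adjusted p = 0.157 in limma).

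Most skeletal muscle markers were lower under load at day 14 as well, where 4.27% of all genes were called lower and 3.88% higher. Of 32 muscle markers 22 were lower under load at day 14 and 1, Tnnc1, a slow and cardiac troponin, was higher, with a median of -2.58. Apobec2 (-4.61), a muscle member of a deaminase family, Ckmt2 (-4.42), a mitochondrial creatine kinase, and Pygm (-3.70), the muscle glycogen phosphorylase, had the smallest p-values. The mean of the 32 markers ranged from -1.25 to 0.57 in unstressed and from -3.92 to -0.30 in stressed day 14 arrays, and from 0.03 to 0.63 at day 6 over both groups. The mean of the 33 fat genes ranged from -0.14 to 0.79 and from -1.57 to -0.17 in the same day 14 groups. Stressed replicate 4 was the highest stressed array and unstressed replicate 3 the lowest unstressed array in both means. In the low Xist class 30 muscle markers were lower in stressed wounds and in the high class 28, with medians of -3.97 and -1.0. Slc2a4, Cd36, Lpl, Car3, Pdk4 and Ppargc1a are examples of genes that muscle also makes, and not a full list. Whether the other fat genes are specific to fat was not tested. The part of muscle content in the values of the fat genes, named or not, was not tested either.

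**Figure D5:**
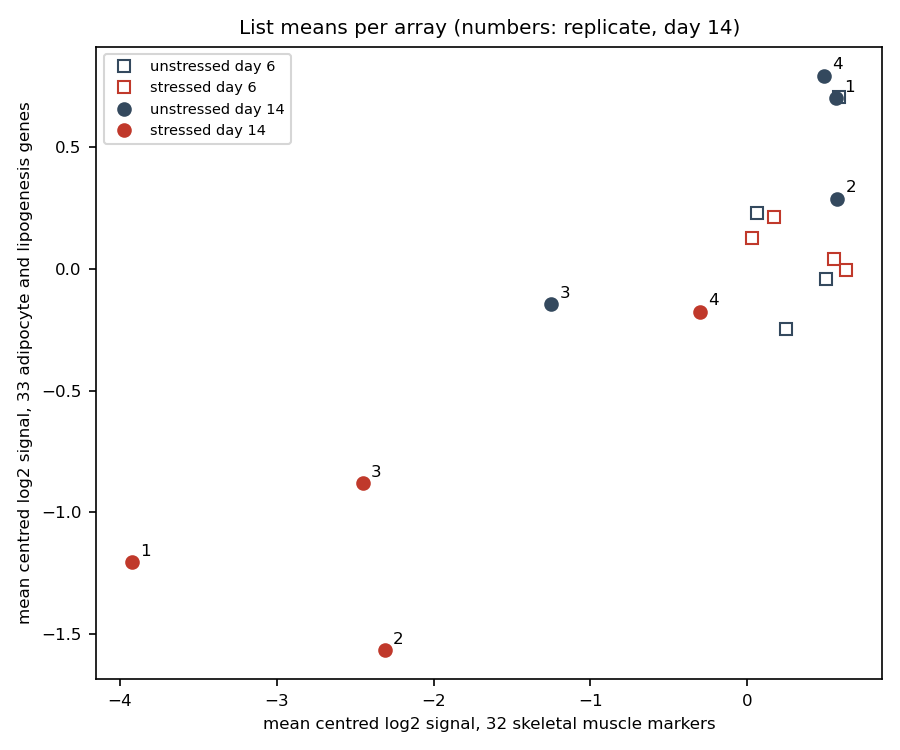
Mean centred log2 signal of the 33 adipocyte and lipogenesis genes (y axis) against that of 32 skeletal muscle markers (x axis), 1 point per array, with replicate numbers at day 14. Stressed day 14 replicates 1 to 3 lie at the lower left, with muscle means from -3.92 to -2.31, and stressed replicate 4 and unstressed replicate 3 lie between them and the other arrays.

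Markers of other cells in the wound gave the following at day 14, where 4.27% of all genes were called lower under load and 3.88% higher. Of 15 macrophage markers 11 were higher under load, with a median of 1.44 and Aif1 (1.97), C1qb (1.5) and Lyz2 (1.74) at the smallest p-values. Of 11 measured markers of adipocyte progenitors and fibroblasts 4 were higher, namely Col3a1 (3.02), Col1a2 (2.20), the proteoglycan gene Lum (2.06) and Dlk1 (1.33), a preadipocyte protein. Of 7 measured markers of brown fat 4 were lower, Cox7a1 (-2.90), Cox8b (-2.89), Dio2 (-1.07) and Ppargc1a, and muscle makes Cox7a1 and Cox8b too. Sebaceous gland markers gave 0 of 7, with a median of 0.32 and Fa2h at -0.96 (adjusted p = 0.264 in limma). Of 10 markers of growing hair follicles Lhx2 (-1.96) and Sox9 (-1.39) were lower and none higher, with a median of -1.18. With time, 7 of the 10 rose in unstressed wounds (median 2.38), where 23.1% of all genes rose. In stressed wounds 6 rose and 1 fell (median 1.17), where 24.0% of all genes rose and 34.3% fell. Of 11 markers of dermis and epidermis 2 were higher, both collagens. The part of these cell types in the fat gene values was not tested.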

How the data were processed

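RNA of 16 wound samples was hybridised to Affymetrix arrays. Per the design text the authors used GeneSpring GX 11.0 on the intensity files. How background, probe summaries and scaling between arrays were handled is not given in the sources used here. Values as deposited by the authors were read as log2 signals centred per probe set, the base and the centring being inferred from the values. No filter on low values was applied. Per platform annotation, 34945 of 45101 probe sets carry 1 gene symbol, and the rest were left out. Each of 18193 genes took its most variable probe set by interquartile range and entered lmFit and eBayes of limma 3.58.1 (R 4.3.3), with the 4 groups of all 16 arrays in 1 fit. The 5 contrasts were tested two-sided with Benjamini-Hochberg adjustment over all genes and a threshold of 0.05. All adjusted p-values are from limma. Tables used Python 3.11.15 with pandas 2.3.3 and numpy 2.4.6, and plots matplotlib 3.10.9.

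The genes, their roles and the 6 companion and 8 marker lists were chosen with earlier results of these data known. Values by array are given, by rule, for the 4 genes with the largest day 14 loading difference among those called, the largest of each role, up to 4 called in each time comparison, and those called against the direction of most. Slc2a4, Lpin1, Pck1 and Fabp4 were added after their values were seen, as were genes named for lists beyond the 3 with the smallest p. No 2 replicates held identical values. Same-numbered stressed and unstressed arrays deviated together at day 14 (correlations 0.30, 0.18, 0.27 and 0.19) and not at day 6 (-0.13, -0.41, -0.18 and 0.00). At day 14 unstressed replicate 2 correlated best with stressed replicate 1, and same-numbered arrays share the Xist class, whose part in this was not tested. Precision is limited by the number of arrays.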

Additional observations from a re-analysis of the deposited data

Results flagged for a closer look

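Over the 33 genes and 4 groups, 132 sets of 4 arrays were searched for a single array far from the other 3, and 7 held one. Chance gives about 1 in 20, so the count is near what chance gives. In stressed day 14 wounds, replicate 4 stood above the rest for 3 genes: Cidec read 0.70 there and -2.48 to -2.24 in the other arrays, Pnpla2 -0.19 and -1.61 to -1.43, and Pck1 0.43 and -0.54 to -0.46. In the same group replicate 2 gave Elovl6 -3.41, below the others at -1.39 to -1.16. In unstressed day 14 wounds replicate 3 gave Lpin1 -1.27, while the others lay at 0.95 to 1.12. At day 6, unstressed replicate 2 gave Plin4 0.33, above the others at -0.14 to -0.09, and stressed replicate 2 gave Me1 -1.19, below the others at -0.01 to 0.19. Stressed replicate 4 and unstressed replicate 3 of day 14 are also the arrays that come closest to the opposite group in the fat and muscle means, and the part of tissue content in these values was not tested.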

How the results depend on the processing

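The count of 19 genes called for loading at day 14, all lower, was the value that moved most with the processing, and in every setting 0 were called higher. Quantile normalization gave 6, fitting the 8 arrays of the groups compared alone gave 1, the high Xist arrays of day 14 gave 3, and the 8 day 14 arrays with Xist class as a block, an alternative chosen after seeing the data, gave 10. Leaving out 1 array gave 12 to 21, the lowest without stressed replicate 2. A replicate block treats same-numbered arrays as matched, which the sample titles do not state. It gave 20 at day 14, with 1341 of all genes called in either direction, and changed no count by over 1.5 times in the other comparisons. The other settings gave 17 to 24: array weights 20, Xist class as a block in all arrays 21, the low Xist arrays 22, trend and robust estimation 20, genes of low variability left out 17, the median of probe sets 20 and all probe sets 24. The calls over all genes, in either direction, moved more. They numbered 1483 in the main fit, 2726 with array weights, 2232 with the Xist block and 3393 with the low Xist arrays. Trend and robust estimation gave 1433, genes of low variability left out 1190, the median of probe sets 1386 and all probe sets 2567 probe sets. Slc2a4 kept its call in all 12 alternatives and Dgat2 in 11, and the cause of the lost calls was not tested. For the difference between the days, array weights gave 14 in place of 0, and leaving out 1 array gave 0 to 9. For time in unstressed wounds (12), all probe sets gave 19, and for time in stressed wounds (25), the high Xist arrays gave 13, with fewer arrays in the fit. At day 6 every setting gave 0. The Acaca difference in stressed wounds turned to -0.0447 with the median of its probe sets. Over single genes, 516 of the values under the alternatives stayed on their side of the threshold, 107 fell below it and 1 reversed. Signal over background could not be judged from centred values.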
